A study of Homo sapiens with 118 samples.

Results

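UDP-glucuronosyltransferases (UGTs) are the enzymes of glucuronidation, a main route by which the liver makes drugs, hormones and bilirubin soluble enough to be excreted. Their expression was followed in HepaRG cells, an established human hepatic cell line, after 72 h with 1 of 8 histone deacetylase inhibitors. All rows of the count table named for UGT1A1, UGT1A4, UGT1A6, UGT1A9, UGT2A3, UGT2B4, UGT2B7, UGT2B10, UGT2B15 or UGT2B17 were taken, which gave 14 probes for 10 genes among 22068 probes for 19470 gene symbols. The 118 TempO-Seq libraries formed 40 groups, 1 for each chemical and concentration, and the 5 concentrations are called C1 (lowest) to C5 (highest). A group held 3 libraries, each from another batch of HepaRG cells, except panobinostat C3 and trichostatin A C4 with 2. By the dose labels, in µM, C1 and C5 were 0.0417 and 0.86 for apicidin, 0.177 and 3.90 for mocetinostat, 0.00147 and 0.084 for panobinostat, and 4.94 and 94.5 for scriptaid. They were 1.14 and 44 for tacedinaline, 0.0188 and 1.52 for trichostatin A, and 0.405 and 23.5 for vorinostat. For valproic acid the labels gave 100 and 3038, and the unit is open because the exposure protocol gives other numbers. The doses of the chemicals were not matched, so their responses are set side by side and not compared. All cells received an inhibitor, and each change is measured against C1 of the same chemical, so an effect that C1 had in full does not show.

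A UGT moves glucuronic acid from UDP-glucuronate onto its substrate on the inner side of the endoplasmic reticulum. Genes of the UGT1A family lie at 1 locus, and each has its own promoter and the start of its coding sequence, joined to 3′ exons that all of them share. In the RefSeq annotation of GRCh38.p14 the 9 UGT1A gene models on chromosome 2 have 9 different starts and the same end. The UGT2 genes among the members have exons of their own and lie together on chromosome 4. Where a probe lies on its transcript is not given in the sources used here, so whether a UGT1A probe also detects the transcripts of other UGT1A genes was not tested. Probes are named as deposited, with the gene symbol and a number, and levels are counts scaled to a common library size (CPM). Since every probe has its own efficiency, levels are compared between samples and never between probes.

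Promoter sequence is shown for UGT1A9, which fell in 7 chemicals, and for UGT1A1, the member with rising calls, to set both starts of the locus side by side. Each line gives the 250 bases before the start of the gene in RefSeq (GRCh38.p14), 5′ to 3′.
UGT1A9 promoter, chr2:233671648-233671897, plus strand: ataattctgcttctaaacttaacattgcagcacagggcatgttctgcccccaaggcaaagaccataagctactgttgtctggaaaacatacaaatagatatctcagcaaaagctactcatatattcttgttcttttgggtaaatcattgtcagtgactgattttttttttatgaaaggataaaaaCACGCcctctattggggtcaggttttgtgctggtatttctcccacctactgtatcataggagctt
UGT1A1 promoter, chr2:233760020-233760269, plus strand: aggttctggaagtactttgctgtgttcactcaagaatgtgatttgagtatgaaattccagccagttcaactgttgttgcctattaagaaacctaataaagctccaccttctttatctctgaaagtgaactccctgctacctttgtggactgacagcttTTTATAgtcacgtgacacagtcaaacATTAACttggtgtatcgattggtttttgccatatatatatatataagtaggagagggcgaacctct
Capitals mark matches on either strand to the motifs searched, which were GTTAAT (the core of the site of HNF1, a hepatic transcription factor), the whole palindromic HNF1 site (which contains that core), CAAAGTCCA (HNF4), GCGTG (the core of the AHR site) and TATAAA (letters of a TATA box). The UGT1A9 window held an AHR core on the minus strand at -65 from the start. The UGT1A1 window held a match to TATAAA at -92 and to the HNF1 core at -66, both on the minus strand, and such a match does not locate a functional TATA box. RefSeq windows were matched for 8 of the 10 genes, 9 windows in all, of which 2 held the HNF1 core, 3 the AHR core, 2 the letters TATAAA and 0 the whole HNF1 or the HNF4 motif. Of 35116 windows of 300 bases in the annotation, 6.88% held the HNF1 core, 36.5% the AHR core, 11.5% TATAAA, 0.0057% the whole HNF1 motif and 0.384% the HNF4 motif.

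Total counts per library ran from 1061359 to 5250260, with a median of 3702007, and 10223 to 13492 features had at least 5 counts. Mean totals were lower at C5 than at C1 in all 8 chemicals, most in vorinostat (3038905 and 1485592). Across libraries the correlation of log2 CPM with the other libraries of the same group was between 0.892 and 0.978 in 115 libraries. It was lower in 3 libraries, all of batch 3, namely scriptaid C4 (0.817), mocetinostat C2 (0.839) and trichostatin A C1 (0.880). The summed level of the 11 hepatocyte marker probes was 13722 CPM in the trichostatin A library and 53655 and 57231 CPM in the other C1 libraries of that chemical, and the summed level of the UGT probes was 709 against 2074 and 1986 CPM. The hepatocyte markers were present at C1 of the other 7 chemicals (summed level 37605 to 71354 CPM), while the 8 biliary marker probes summed to 63.1 to 161 CPM.

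Some or all of the UGT probes tested in a chemical fell toward C5 in 7 of the 8 chemicals. A probe was called when its adjusted p-value in edgeR's quasi-likelihood test was under 0.05 and its fold change at least 1.5. Over all chemicals 97 tests of UGT probes were made in each comparison, 12 per chemical and 13 in trichostatin A. At C2 there were 0 calls, although 17 of the tests had an unadjusted p under 0.05 (0.0206% of all tests of all features were falling calls). At C3, 28 of the 97 tests were falling calls, against 3.16% of all tests. At C4 there were 49 falling calls (8.14% of all tests) and 3 rising calls (7.85%). At C5 there were 66 falling calls (13.4% of all tests) and 0 rising calls (11.6%), where 3 tests had an unadjusted p under 0.05 with a higher level, and DESeq2 called 68 falling and 0 rising. Without replicates 1, 2 and 3 in turn, the falling calls at C3 numbered 24, 17 and 23, those at C4 43, 42 and 49, those at C5 60, 64 and 66, the rising calls at C4 were 0, 1 and 3, and 5 falling calls appeared at C2 without replicate 3, all of them in mocetinostat, where leaving out the C2 library of batch 3 alone also gave 5.

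At C5 all 12 probes tested fell in tacedinaline and in vorinostat, where 20.1% and 24.9% of all features tested fell. There were 10 falling calls of 12 in apicidin (15.0% of all features) and in scriptaid (17.0%), and 9 in mocetinostat (15.7%). In valproic acid 7 of 12 fell (6.22%) and in panobinostat 6 of 12 (9.46%). In trichostatin A 0 of 13 were called by edgeR (0.0154%) and 0 by DESeq2, and 3 had an unadjusted p under 0.05. The median log2 change of the tested UGT probes was -4.63 in vorinostat, -4.47 in tacedinaline, -4.24 in scriptaid, -3.13 in mocetinostat, -2.81 in apicidin, -1.98 in valproic acid, -1.02 in panobinostat and -0.15 in trichostatin A, while that of all features lay between 0.00 and 0.08. Vorinostat, tacedinaline and scriptaid were on plate E and the other chemicals on plate H, so plate and chemical cannot be told apart in this order. Mean totals at C5 were 1485592, 2110830 and 2325353 counts in vorinostat, tacedinaline and scriptaid, and 3462585 in mocetinostat, the lowest of plate H. The number of falling calls at C5 was 3 in panobinostat without replicate 3 and 4 in valproic acid without replicate 1. In the trend over all 5 concentrations 64 of 97 tests were falling calls (12.7% of all tests). In bulk lysates, fewer cells of a type and less RNA per cell cannot be told apart.

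**Figure D1:**
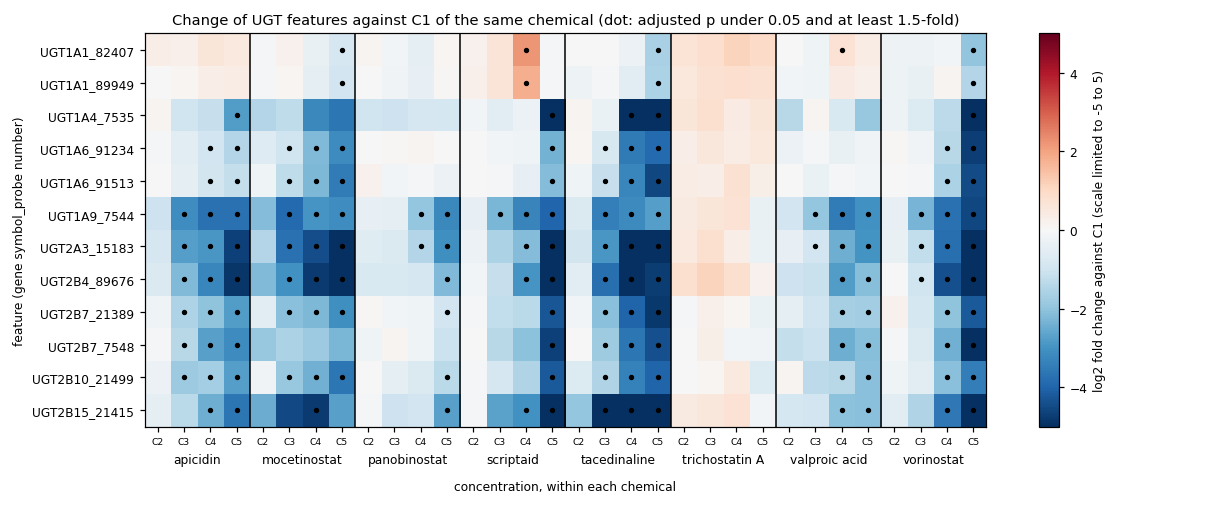
Colour gives the fitted log2 fold change of each of the 12 UGT features tested in all 8 chemicals at C2 to C5 against C1 of the same chemical, blue for lower and red for higher, and a dot marks a call. The UGT1A9 and UGT2A3 rows are blue with dots in every chemical but trichostatin A, while the UGT1A1 rows hold the red cells with dots, at C4 of scriptaid and valproic acid. Where a group lay at the floor of 3 counts the shade depends on the prior count.

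UGT1A9, which conjugates bulky phenols such as propofol, fell in all 7 chemicals, and was called at C3 in 6 of them. In apicidin the libraries of batches 1, 2 and 3 held 80.9, 98.3 and 73.8 CPM at C1, 15.1, 6.06 and 8.11 at C3 and 8.94, 3.67 and 6.20 at C5. In mocetinostat they held 67.5, 60.2 and 42.7 CPM at C1, 2.06, 6.03 and 3.00 at C3 and 8.34, 9.03 and 0.918 at C5. In tacedinaline they held 42.5, 43.4 and 33.4 CPM at C1, 2.48, 4.62 and 4.06 at C3 and 9.99, 5.52 and 1.65 at C5. In these 3 chemicals no library of C3 or C5 came near the C1 libraries, and the C3 and C5 libraries overlapped in each. The C5 log2 changes against C1 were -3.74 ± 0.35 (SE, adjusted p = 1.05e-07), -3.12 ± 0.58 (adjusted p = 0.000660) and -2.76 ± 0.44 (adjusted p = 1.94e-06). In the other 4 chemicals the level at C5 was lower than at C3 in every library. In scriptaid the C1 libraries held 60.5, 62.0 and 44.8 CPM, the C3 libraries 16.4, 7.77 and 10.4 and the C5 libraries 2.97, 5.39 and 1.45, a C5 log2 change of -3.95 ± 0.50. In vorinostat the values were 38.7, 52.2 and 33.6 CPM at C1, 10.7, 6.52 and 7.28 at C3 and 2.45, 0.476 and 2.34 at C5, a C5 log2 change of -4.55 ± 0.52, on counts of 4 reads or fewer at C5. In valproic acid they were 81.9, 86.7 and 42.7 at C1, 13.0, 22.9 and 19.9 at C3 and 6.34, 7.37 and 12.1 at C5, a C5 log2 change of -3.04 ± 0.32. Panobinostat was the chemical of the 7 without a call at C3, where the log2 change was -0.48 ± 0.30. There UGT1A9 stood at 51.2, 84.0 and 56.2 CPM at C1, 11.4, 22.2 and 16.3 at C4 and 7.54, 6.01 and 7.43 at C5, with a C5 log2 change of -3.20 ± 0.31. Over the 7 chemicals the mean at C5 lay between 1.76 and 8.62 CPM, from C1 means of 39.8 to 84.3, and C1 and C5 libraries did not overlap in any of them. The C5 calls in 7 chemicals stood without replicate 1, 2 or 3, while the C3 calls numbered 4, 5 and 6 chemicals in turn. The C3 call was lost in scriptaid without replicate 1 (adjusted p = 0.115) or 2 (0.688), and in valproic acid without replicate 1 (0.268).

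UGT2A3, a UGT2 enzyme of liver and intestine, fell at C5 in the same 7 chemicals. In scriptaid the libraries held 86.1, 93.5 and 48.8 CPM at C1 and 0.85, 0.284 and 0.483 at C5. All C5 libraries there had 2 reads or fewer, so the level was at least 63.9-fold lower (edgeR adjusted p = 6.18e-07). In vorinostat the values were 57.0, 63.8 and 61.6 and 0.818, 0.476 and 1.75 CPM, at least 32.4-fold lower at C5. In mocetinostat UGT2A3 went from 121, 109 and 118 CPM at C1 to 4.71, 11.6 and 9.00 at C3 and 0, 1.29 and 3.98 at C5, and in tacedinaline from 96.1 ± 24.3 CPM (SD, n = 3) to 1.91 ± 1.23. In apicidin it went from 97.0 ± 14.5 CPM to 3.80 ± 1.06, a log2 change of -4.66 ± 0.29. Panobinostat had 98.6, 114 and 101 CPM at C1 and 12.0, 11.8 and 14.3 at C5, and valproic acid 75.3, 80.0 and 78.5 and 12.7, 10.2 and 6.49. The C1 and C5 libraries did not overlap in either chemical, and the log2 changes were -3.05 ± 0.23 (adjusted p = 8.86e-09) and -2.97 ± 0.25 (adjusted p = 2.64e-08). UGT2A3 was called at C3 in 5 chemicals, namely apicidin, mocetinostat, tacedinaline, valproic acid and vorinostat, in 4 without replicate 1 and in 3 without replicate 2.

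UGT2B4, which conjugates bile acids, was also lower at C5 in 7 chemicals. In mocetinostat it was at 17.9, 20.0 and 17.8 CPM at C1 and had 0 counts in all 3 libraries of C5, at least 22.5-fold lower (adjusted p = 4.76e-05). In vorinostat each C5 library had 1 read, against 67.5, 48.2 and 57.3 CPM at C1, at least 30.7-fold lower. In tacedinaline the C5 libraries had 3 reads or fewer, at least 21.7-fold below C1. Apicidin took UGT2B4 from 35.5 ± 2.61 to 1.18 ± 0.396 CPM and scriptaid from 69.2 ± 24.1 to 1.88 ± 0.822. It went in panobinostat from 42.7, 45.0 and 39.8 CPM to 9.77, 9.62 and 8.80, and in valproic acid from 33.5, 34.9 and 46.3 to 11.0, 5.71 and 9.32. Their log2 changes were -2.19 ± 0.31 (adjusted p = 3.19e-05) and -2.14 ± 0.33 (adjusted p = 0.000104), and in neither did the libraries of C1 and C5 overlap.

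UGT2B7, known for the glucuronidation of morphine and of many acids, has 2 probes. UGT2B7_21389 fell at C5 in all 7 chemicals. In tacedinaline it stood at 33.3, 64.6 and 49.6 CPM at C1, 11.6, 8.21 and 15.1 at C3 and 2.00, 1.38 and 1.65 at C5, a C5 log2 change of -4.83 ± 0.45. In scriptaid the C1 and C5 libraries held 60.2, 39.8 and 34.7 and 2.12, 2.84 and 1.45 CPM, and in vorinostat 38.7, 53.0 and 37.7 and 0.818, 3.80 and 1.17. All C5 libraries of these 3 chemicals lay far below their C1 libraries. The C5 log2 change was -3.07 ± 0.40 in mocetinostat, -2.81 ± 0.32 in apicidin, -1.73 ± 0.35 in valproic acid and -0.97 ± 0.27 in panobinostat. The panobinostat change, from 44.7, 39.5 and 42.7 CPM to 27.6, 14.7 and 23.4, had an adjusted p of 0.0173, which became 0.0936, 0.0662 and 0.0831 without replicates 1, 2 and 3. In valproic acid the adjusted p was 0.113 without replicate 1. UGT2B7_7548 fell in 5 chemicals. In mocetinostat its C1 libraries held 75.6, 101 and 31.9 CPM, those of C5 11.7, 13.4 and 15.6, and the log2 change of -2.28 ± 0.90 did not pass (adjusted p = 0.0658). In panobinostat the log2 change was -1.07 ± 0.47 (adjusted p = 0.125). Without the filter on low counts both were called (adjusted p = 0.00737 and 0.000383), which made 7 chemicals, and without replicates 1, 2 and 3 in turn the calls of UGT2B7_7548 numbered 4, 5 and 6. The group means of both probes, each taken relative to the mean of its chemical, had a Pearson correlation of 0.923 over the 40 groups, which share libraries, and 0.881 without the 3 libraries that stand apart.

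UGT2B10, which conjugates nicotine and other amines, fell at C5 in 7 chemicals. In mocetinostat its C1 libraries held 39.1, 33.4 and 45.4 CPM and its C5 libraries 3.13, 2.84 and 3.06. The log2 change there was -3.62 ± 0.50 (adjusted p = 4.61e-05), and it was -4.20 ± 0.80 in scriptaid, -4.01 ± 0.48 in tacedinaline, -3.47 ± 0.47 in vorinostat, -2.74 ± 0.53 in apicidin and -2.08 ± 0.46 in valproic acid. In panobinostat it went from 31.2, 27.1 and 28.2 to 15.6, 10.1 and 8.53 CPM, with a log2 change of -1.35 ± 0.40. That call was lost without replicate 1 (adjusted p = 0.0695) or 3 (0.154), the scriptaid call without replicate 2 (0.0513) and the valproic acid call without replicate 1 (0.216).

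UGT2B15, a steroid and oxazepam conjugating enzyme, was at low levels, with C1 means of 11.0 to 20.5 CPM. In tacedinaline it had 23.3, 9.74 and 22.1 CPM at C1 and 0 counts in all 3 libraries of C3, at least 12.2-fold lower (adjusted p = 2.92e-06). It was at least 17.2-fold lower at C5 in scriptaid, at least 14.6-fold in tacedinaline and at least 9.88-fold in vorinostat. The falls of apicidin (-3.60 ± 0.55 on the log2 scale), panobinostat (-2.73 ± 0.52) and valproic acid (-2.08 ± 0.40) were also called, though in panobinostat the adjusted p was 0.0523 without replicate 3. In mocetinostat the C5 libraries held 0, 4.64 and 0 CPM, so that batch 2 stood apart from the other 2, and the change was not called (log2 -2.70 ± 1.29, adjusted p = 0.129, 0.0281 without replicate 2). UGT2B17, the testosterone conjugating enzyme that also acts on vorinostat, was near the limit of detection. It passed the filter on low counts in trichostatin A alone, where its values were 3.35, 0.918 and 4.78 CPM at C1 and 0.794, 0 and 0 at C5. It was at the floor of 3 counts in every C5 library of trichostatin A, and the log2 change of -3.29 ± 1.15 had an adjusted p of 0.408.

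**Figure D2:**
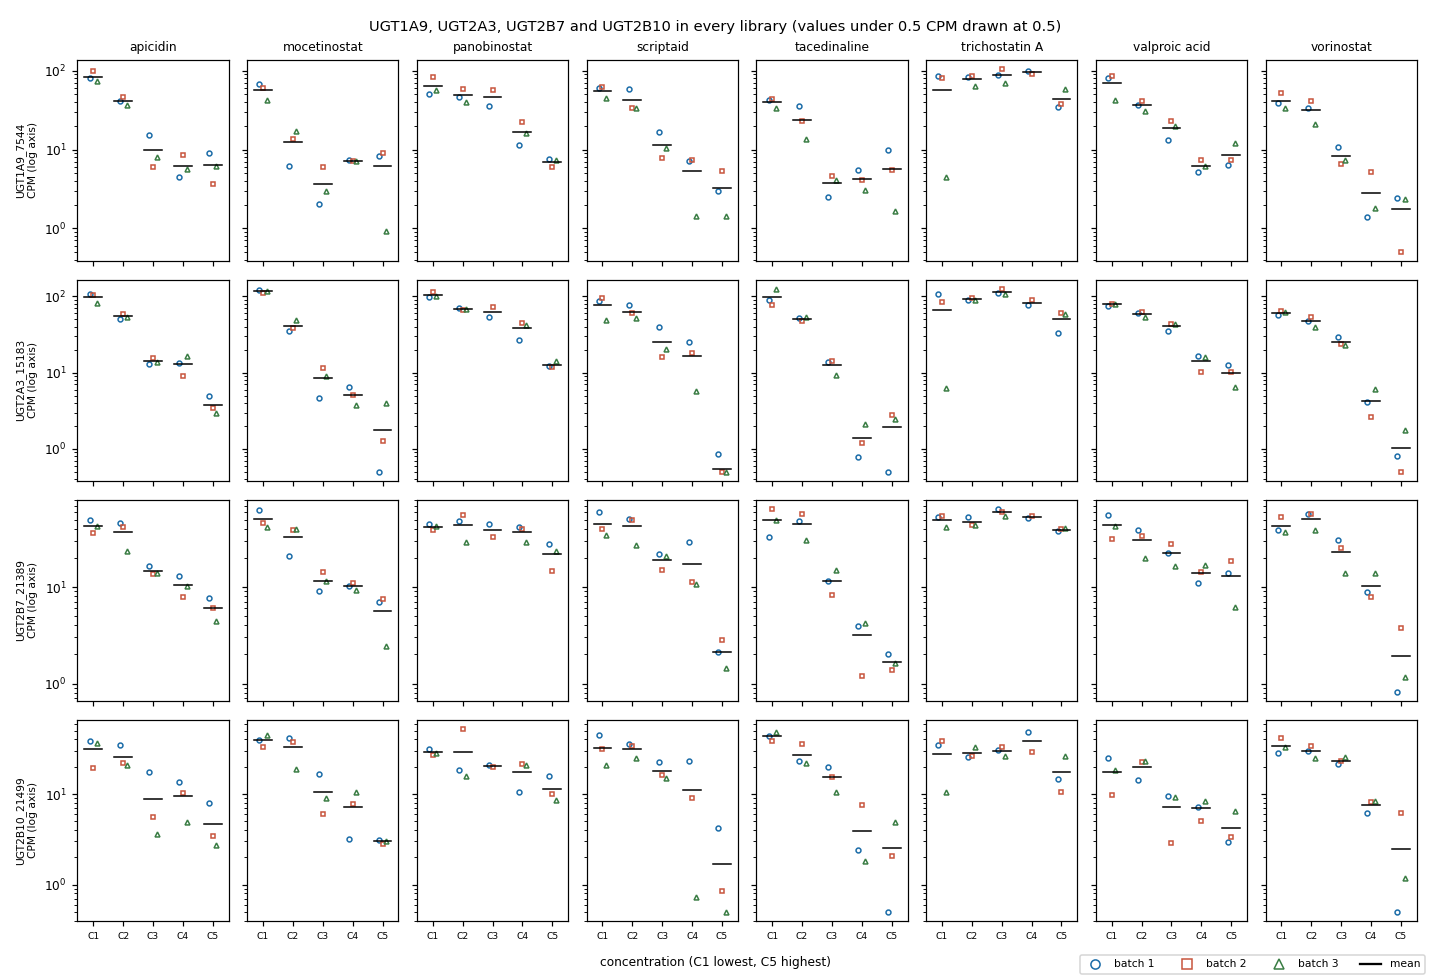
Each panel plots the level of a UGT feature in every library against concentration in 1 chemical, on a log axis of CPM, with a symbol for each HepaRG batch, a line for the group mean and values under 0.5 CPM drawn at 0.5. UGT1A9, UGT2A3, UGT2B7 and UGT2B10 fall toward C5 in 7 chemicals, and the batch 3 library of trichostatin A C1 lies far below its group for UGT1A9 (4.48 CPM) and UGT2A3 (6.28 CPM).

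UGT1A4, which forms N-glucuronides of tertiary amines, had C1 means of 4.68 to 12.5 CPM and fell at C5 in 4 chemicals. In scriptaid it held 13.5, 12.2 and 10.3 CPM at C1 and still 10.6, 11.2 and 6.49 at C4, with 0 counts in all 3 libraries of C5, at least 10.1-fold lower (adjusted p = 4.11e-05). In vorinostat it went from 13.3, 17.1 and 7.16 CPM to 0 counts in all 3 libraries, at least 6.66-fold, and in tacedinaline by at least 6.89-fold. The call in apicidin, from 12.2, 0.473 and 10.5 to 0.263, 1.96 and 0.993 CPM with overlapping libraries, was lost without replicate 1 (adjusted p = 0.210) or 3 (0.200). In mocetinostat (-3.63 ± 1.41 on the log2 scale, adjusted p = 0.0615), valproic acid (-1.88 ± 0.69, 0.0858) and panobinostat (-0.89 ± 0.66, 0.395) the lower level did not pass. The DESeq2 Wald test called UGT1A4 in 6 chemicals, with mocetinostat (adjusted p = 0.0244) and valproic acid (0.0432) added, edgeR without the filter on low counts in 5, and edgeR without replicate 1 in 3.

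UGT1A6, which conjugates small planar phenols and serotonin, fell at C5 in 5 chemicals by both of its probes. In vorinostat UGT1A6_91234 held 475, 532 and 433 CPM at C1, 515, 425 and 330.2 at C3, 165, 164 and 204 at C4 and 14.7, 20.0 and 15.2 at C5. In tacedinaline it held 615, 546 and 506 CPM at C1, 43.7, 46.6 and 50.9 at C4 and 35.5, 46.2 and 24.7 at C5. The mean at C5 was 28.9-fold below C1 in vorinostat and 15.7-fold below in tacedinaline, with log2 changes of -4.72 ± 0.20 (adjusted p = 5.37e-19) and -3.90 ± 0.17 (adjusted p = 3.92e-22). In mocetinostat it went from 405 ± 81.4 to 43.8 ± 13.5 CPM and in apicidin from 463 ± 56.6 to 166 ± 27.0, stepwise from C3 or C4 onward. In scriptaid the level at C4, 481, 516 and 406 CPM, overlapped that at C1, 490.5, 558 and 589.9, and the fall came at C5, with 129, 140.0 and 37.2. The probe UGT1A6_91513 held 823, 812 and 925 CPM at C1 of scriptaid and 704, 730 and 473 at C4, which do not overlap, but was not called there before C5. At C5 this probe gave log2 changes of -4.46 ± 0.18, -4.55 ± 0.23, -3.49 ± 0.21, -2.15 ± 0.42 and -1.20 ± 0.18 in vorinostat, tacedinaline, mocetinostat, scriptaid and apicidin. These 5 calls of each probe stood without replicate 1, 2 or 3.

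Panobinostat and valproic acid did not move UGT1A6 past the test, while UGT1A9 fell in both. Under panobinostat UGT1A6_91234 held 328, 337 and 268 CPM at C1 and 334, 303.4 and 315 at C5, a log2 change of 0.01 ± 0.16 (adjusted p = 0.970). Under valproic acid it held 403, 289 and 306 and 322, 294 and 264 CPM, a log2 change of -0.18 ± 0.20 (adjusted p = 0.654). The C1 and C5 libraries overlapped in both chemicals. UGT1A6_91513 changed by -0.29 ± 0.17 (adjusted p = 0.256) and -0.13 ± 0.16 (adjusted p = 0.705). The difference between UGT1A6 and UGT1A9 within a chemical was not tested.

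UGT1A1, the enzyme that conjugates bilirubin, was the member with rising calls, and its direction differed between chemicals and concentrations. It has 3 probes, of which UGT1A1_7531 stayed between 0 and 3.98 CPM in all libraries and passed the filter on low counts in 0 chemicals. The other 2 probes moved alike, with a correlation of 0.979 over the 40 group means and 0.971 without the 3 libraries that stand apart. In scriptaid UGT1A1_82407 held 315, 342 and 483 CPM at C1, 568, 477 and 760.1 at C3, 1058, 643 and 3422 at C4 and 439, 454 and 173 at C5. UGT1A1_89949 held 812, 932 and 917, 1531, 1312 and 1289.5, 2317, 1614 and 5084 and 1026, 1066 and 357 CPM at these concentrations. Every C4 library was above every C1 library for both probes, and the C4 library of batch 3, which stands apart, was the highest. The C4 log2 changes were 2.21 ± 0.49 (adjusted p = 0.0116) and 1.80 ± 0.40 (adjusted p = 0.0131), where 2.20% of all features rose. Without that library they were 1.11 (adjusted p = 0.0120) and 1.10 (0.00890). The adjusted p was 0.129 and 0.149 without replicate 1, and 0.127 and 0.150 without replicate 2. From C4 to C5 both probes fell again in scriptaid, by 2.27 ± 0.49 and 1.87 ± 0.40 on the log2 scale (16.5% of all features fell at this step), which left C5 near C1. Without the C4 library of batch 3 these falls were 1.18 and 1.19 (adjusted p = 0.00240 and 0.00133), and without replicate 3 they were 0.90 and 0.88.

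In valproic acid UGT1A1_82407 was at 199, 147 and 211 CPM at C1, 373, 243 and 305 at C4 and 203, 327 and 198 at C5. The rise at C4, 0.72 ± 0.21 on the log2 scale, was called (adjusted p = 0.0268, 5.51% of all features rose), but not without replicate 1 (adjusted p = 0.274). UGT1A1_89949 changed by 0.42 ± 0.14 there (adjusted p = 0.0594). In vorinostat and tacedinaline UGT1A1 was not called at C2, C3 or C4 and fell at C5. The vorinostat libraries of UGT1A1_82407 held 268, 293 and 273 CPM at C1, 258, 216 and 265 at C4 and 90.8, 78.0 and 29.8 at C5, and those of tacedinaline 143, 212 and 158, 129.8, 211 and 76.3 and 54.5, 49.7 and 58.6. The C5 libraries were below all C1 and C4 libraries in both. From C4 to C5 the probe fell by 1.85 ± 0.24 (10.8% of all features fell) and 1.33 ± 0.24 (1.83%) on the log2 scale. Against C1 the C5 log2 changes of UGT1A1_89949 were -1.46 ± 0.19 (adjusted p = 1.20e-07) and -1.57 ± 0.16 (adjusted p = 1.26e-10). In mocetinostat C5 was lower as well, with log2 changes of -0.97 ± 0.22 for UGT1A1_89949 (adjusted p = 0.00266) and -0.84 ± 0.28 for UGT1A1_82407 (adjusted p = 0.0302, 0.254 without replicate 2 and 0.132 without replicate 3). In apicidin UGT1A1_89949 held 555, 485 and 438 CPM at C1 and 677, 615 and 622 at C5, a log2 change of 0.38 ± 0.17 that did not pass (adjusted p = 0.0913), at a concentration where UGT1A9 had gone from 84.3 ± 12.6 to 6.27 ± 2.64 CPM. In panobinostat the log2 change at C5 was 0.05 ± 0.16.

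**Figure D3:**
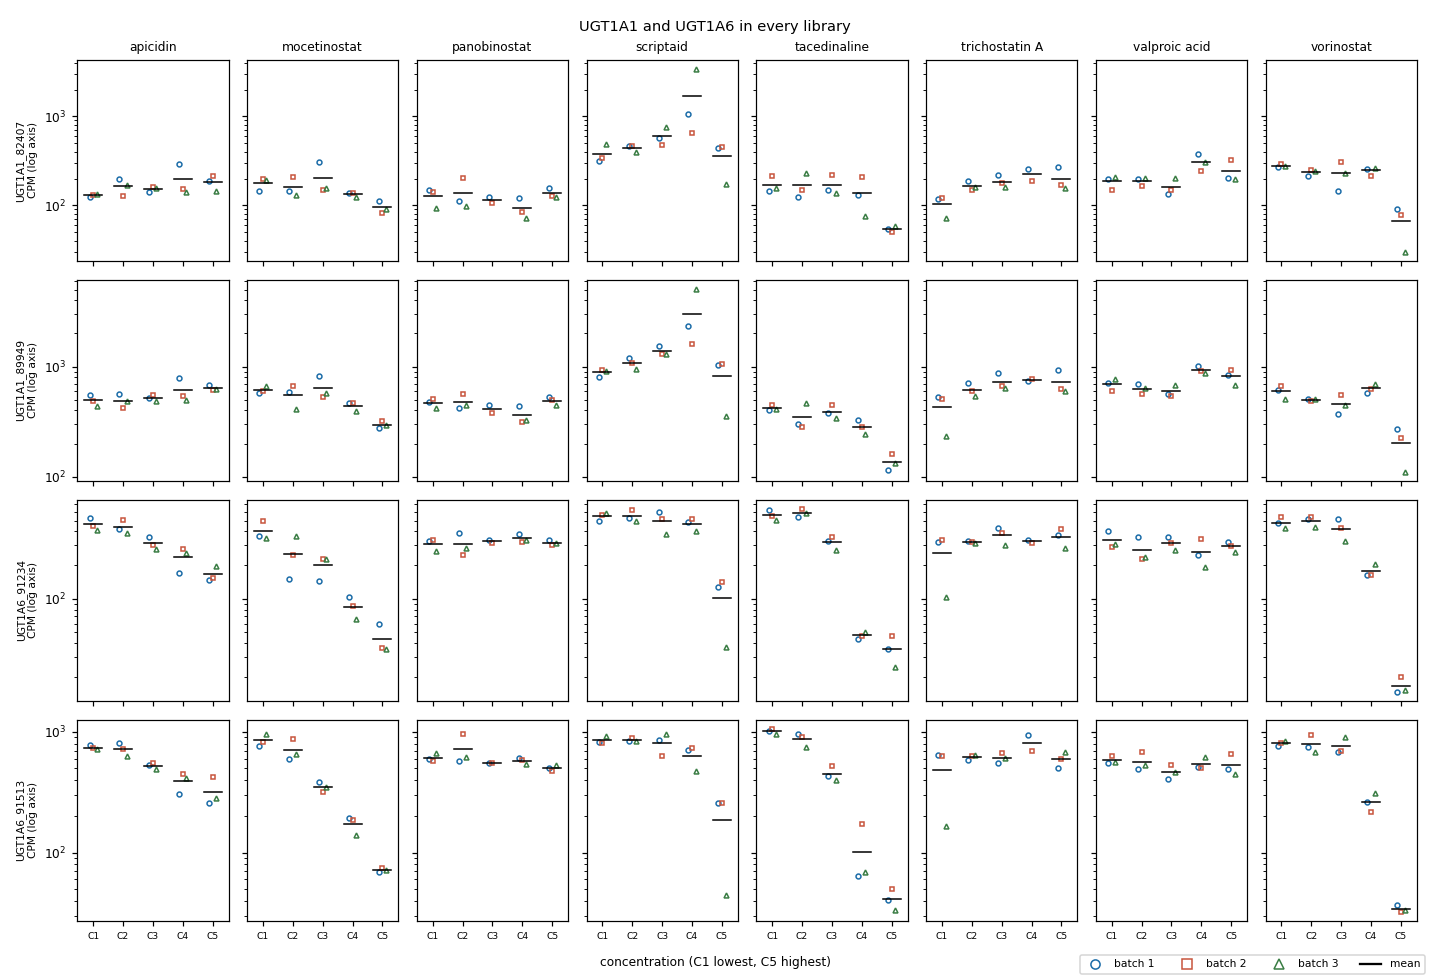
Levels of the 2 measurable UGT1A1 features (upper rows) and the 2 UGT1A6 features (lower rows) are plotted for every library against concentration, on a log axis of CPM, with a symbol for each HepaRG batch and a line for the mean. In scriptaid UGT1A1 peaks at C4, where UGT1A1_82407 reaches 643 to 3422 CPM, while the C4 libraries of UGT1A6_91234 overlap those of C1. UGT1A6_91513 is lower at C4 than at C1 in every library there, and both UGT1A6 features are called at C5 alone.

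In trichostatin A edgeR called no UGT probe at C2, C3, C4 or C5. UGT1A9 held 85.9, 80.7 and 4.48 CPM at C1, 88.4, 105 and 70.3 at C3 and 34.4, 37.6 and 58.6 at C5. UGT2A3 held 106, 83.8 and 6.28, 108, 125 and 108 and 32.8, 61.0 and 59.2 CPM at these concentrations. The low C1 value of batch 3 was seen for UGT2B4 and UGT2B15 too, with 54.0, 38.2 and 2.39 and 27.0, 19.3 and 0 CPM at C1, whereas UGT2B7_21389 was at 53.3, 54.4 and 41.9. Without the C1 library of batch 3, a choice made after the data were seen, the C5 log2 changes were -0.93 for UGT1A9 (adjusted p = 0.0521) and -0.89 for UGT2A3 (adjusted p = 0.0512), and 0 probes were called. Without all libraries of batch 3, UGT1A9 (-1.19, adjusted p = 0.00627), UGT2A3 (-0.997, 0.0434) and UGT2B10 (-1.49, 0.0195) fell at C5. UGT1A1_82407 then rose by 0.92 on the log2 scale (adjusted p = 0.0408), while UGT1A1_89949 had 0 rising calls at C5. With all libraries the values of UGT1A1_82407 were 116, 120.2 and 72.4 CPM at C1 and 273, 167 and 155 at C5, which do not overlap, and the adjusted p was 0.261.

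**Figure D4:**
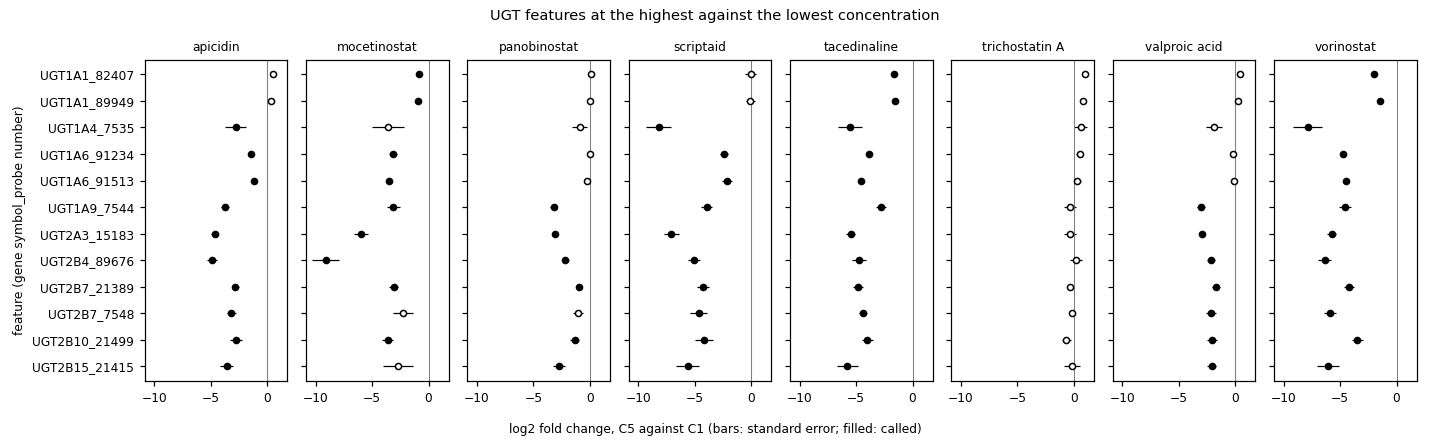
Points give the log2 change of C5 against C1 for the 12 UGT features in each chemical, bars its standard error, and filled points are called. All 12 points are filled in tacedinaline and vorinostat and 0 in trichostatin A, and the UGT1A6 points of panobinostat and valproic acid lie near 0. The most negative points rest on C5 groups at or near the floor of 3 counts.

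The members differed in the concentration at which they were called. UGT1A9, UGT2A3 and UGT2B4 were called at C3 in 6, 5 and 4 chemicals, UGT2B7_21389 and UGT2B10 in 3, UGT2B7_7548 and each UGT1A6 probe in 2 and UGT2B15 in 1, while UGT1A4 and UGT1A1 were called in 0. These counts depend on the level of each probe, since a low count is tested with less precision, and the differences between members were not tested. Without replicates 1, 2 and 3 in turn these C3 counts were 3, 2 and 2 for UGT2B4, 3, 1 and 0 for UGT2B10, 3, 2 and 4 for UGT2B7_21389, 3, 1 and 1 for UGT2B7_7548, 1, 1 and 2 for UGT1A6_91234 and 2, 1 and 2 for UGT1A6_91513. Without replicate 3 UGT1A1_89949 rose at C3 in scriptaid (log2 0.70, adjusted p = 0.0191). Per chemical the falling calls at C3, C4 and C5 were 6, 9 and 10 in apicidin, 7, 8 and 9 in mocetinostat, 9, 10 and 12 in tacedinaline, and 3, 9 and 12 in vorinostat. They were 1, 4 and 10 in scriptaid, 2, 7 and 7 in valproic acid, and 0, 2 and 6 in panobinostat. Without the C4 library of batch 3, a choice made after seeing the data, the calls of scriptaid at C3 and C4 were 5 and 6. Over the 8 chemicals together 3.16%, 8.14% and 13.4% of all tests were falling calls at C3, C4 and C5. Shares of all features at C3 and C4 are not given per chemical. An onset particular to the UGT probes can therefore not be read from these counts. A test of whether the slope on log2 concentration differed between the HepaRG batches found 0 UGT probes past an adjusted p of 0.05 in any chemical. It also found 0 among all features tested in each chemical, so it cannot tell whether the UGT probes responded alike in the batches. An unadjusted p under 0.05 was found for 1 of 12 UGT probes in mocetinostat and in valproic acid (97 of 13065 and 313 of 12982 features).

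For each of the 12 probes the features with the most similar pattern were taken by the Pearson correlation of group means over the 40 groups, after subtraction of the mean of each chemical, among 11276 candidates. The 12 probes themselves were left out as candidates, so a probe is not set against another member here. Among the features most like UGT1A9 were AFM (r = 0.972) and CFHR3 (0.972), and UGT2B15 was most like CYP2C8 (0.956). UGT2A3 was most like EHHADH (0.979), KLKB1 (0.979) and SLCO2B1 (0.976), UGT2B4 like KLHDC2 (0.973), and UGT2B10 like GSTO1 (0.972). UGT2B7_21389 was most like APOC1 (0.978) and ABCC2 (0.976), the latter an exporter of glucuronides, and UGT2B7_7548 like TM7SF3 (0.962). UGT1A4 had C4BPB (0.935) in that place. UGT1A6_91513 was most like UGT1A10 (0.991) and UGT1A6_91234 most like A1CF (0.979), and 0.973 with UGT1A10. For UGT1A1_82407 and UGT1A1_89949 the highest values among the candidates were lower, 0.863 with ACTR1A and 0.854 with PTPRE. Between these UGT1A1 probes the correlation was 0.979, and between both UGT1A6 probes it was 0.984. All points come from the same libraries, and a rank correlation kept 0 to 2 of the 3 leading features of each probe. Without the 3 libraries that stand apart, 1 to 3 of the 3 stayed, and the values of ACTR1A and PTPRE became 0.833 and 0.851.

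Other genes of glucuronidation also moved, and lists around the pathway give the setting. In the 7 chemicals other than trichostatin A, 78.6% of the UGT tests were falling calls at C5, against 15.3% of the tests of all features (13.3% rose). Of 12 other UGT genes, UGT1A3, UGT1A8, UGT1A10 and UGT2B28 fell in 6, 5, 5 and 4 chemicals, and UGT2B11 rose in 4 and fell in 1. Whether the UGT1A8 and UGT1A10 probes read the same transcripts as those of UGT1A6 was not tested. UGDH, which makes UDP-glucuronate, fell in 7 chemicals, with a median log2 change of -1.85 over all 8. Of 8 probes for the supply and turnover of UDP-glucuronate, 20 of 55 tests were falling and 6 rising calls, all 6 of them UXS1, which turns UDP-glucuronate into UDP-xylose. In the list of bilirubin formation, uptake and export 43 of 86 tests fell and 3 rose. SLCO1B1, the uptake carrier, fell in 7 chemicals (median -4.67), and BLVRA, which makes bilirubin, gave all 3 rises. Among regulators of UGT genes 71 of 127 tests fell and 5 rose. The 2 probes of NR1I3, the receptor CAR that induces UGT1A1, fell in 6 and 7 chemicals (medians -5.43 and -4.40), while the 5 rises were all of AHR (median 0.87). For the other conjugating families, 35 of 41 tests of sulfotransferases fell at C5 (SULT2A1 in 6 chemicals), as did 57 of 115 of glutathione transferases (GSTA1 in 7) and 34 of 69 of the remaining conjugating enzymes (GLYAT in 7), with 0, 7 and 8 rises. The 7 rises were MGST3 in 4 chemicals, GSTA4 in 2 and GSTM2 in 1, and the 8 were NAT1_27553 and NAT2 in 3 each and TPMT in 2. The probe NAT1_25741 was tested in 8 chemicals and rose in 0.

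Hepatocyte markers fell along with the UGT genes. In the same 7 chemicals 71 of 77 tests of the 11 hepatocyte probes were falling calls at C5 and 0 rising. Their summed level was 37605 to 71354 CPM at C1 and 3286 to 30026 CPM at C5. ALB fell in 7 chemicals (median log2 change -2.41 over all 8) and TTR in 4 (-0.73). Of 28 tests of biliary or progenitor probes 0 fell and 11 rose, namely SOX9 and SPP1 in 5 chemicals each and KRT19_3690 in 1, with a summed level of 63.1 to 161 CPM at C1 and 79.9 to 226 CPM at C5. The other KRT19 probe was called in 0 of 8 chemicals, KRT7 was tested with 1 probe in 1 chemical, and EPCAM and CFTR passed the filter on low counts in 0. Stromal probes had 19 falling and 7 rising calls of 42, 6 of the rises being COL1A1, and proliferation probes 18 falling of 21. Of these 4 lists 0 probes were at 0 in every library. Library totals were also lower at C5 than at C1. The part of these shifts in the UGT results was not tested.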

How the data were processed

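The authors deposited raw read counts per TempO-Seq detector probe, as whole numbers without normalisation, with a column per library. Submitters' processing notes name bcl2fastq 2.20.422, fastp 0.23.2, STAR 2.7.10b and DESeq2 1.38.0, with no role or order. The probe annotation and genome build are not given in the sources used here. Of 22069 rows, the last lacked values in 88 of 118 libraries and was left out. Solvent controls were not used here. The paper supplied with the series describes another experiment and gave none of the values.

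Each chemical was fitted apart in R 4.3.3 with edgeR 4.0.16 (filterByExpr, TMM scaling, quasi-likelihood F tests), with the concentration group as the term. Then 11631 to 13104 features were tested, and p-values were adjusted by Benjamini and Hochberg over all of them. A call required an adjusted p below 0.05 together with a 1.5-fold change, and errors of log2 changes were obtained from F as |log2 change| divided by its square root. Folds between groups are ratios of mean CPM, on library sizes scaled over all 118 libraries. Where all libraries of a group had at most 3 counts, the fold is a bound computed from 3 counts per library. Such a bound is a convention and not a confidence limit. It leaves out the error of C1, and where reads were seen counting error can reach beyond it. The reads also carry no molecular identifiers. Log2 CPM for correlations used a prior count of 2. Scripts were tested on simulated data.

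Replicates 1, 2 and 3 are, per the labels, 3 HepaRG batches and so pair the libraries. In the check, libraries of 1 batch (232 pairs) deviated from their group means with a median correlation of 0.0361, and libraries of different batches (464 pairs) with -0.0146. No library pair was identical. Alternatives were DESeq2 1.42.0 size factors and Wald test, total counts, no filter, a replicate block, each replicate left out, 1 fit of all libraries, no minimum fold, a prior count of 0.5 and rank correlation. Leaving out libraries that stand apart was added after the data were seen. Named genes were all member probes, the 3 most alike features of each outside the members, the genes with the largest and smallest median change of each list and lists of 5 or fewer. Other genes given by name were picked after their values were seen. Of the alike features, 1 is not reported here. The members and lists were chosen with earlier results of these data known.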

Additional observations from a re-analysis of the deposited data

How the results depend on the processing

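The 66 falling calls of UGT probes at C5 were 66 with DESeq2 size factors, 65 with total counts, 68 with the DESeq2 Wald test, 69 without the filter (with 2 rising) and 71 in 1 fit of all libraries. That fit filtered low counts over all libraries, so its 71 calls include tests not among the 97 of the main fits. Within those 97 it gained 3 calls and lost 1. The replicate block, which pairs libraries by HepaRG batch, gave 67 at C5 and 63 instead of 64 in the trend, and changed 1 call at C5, that of UGT1A4 in mocetinostat (log2 -4.23, adjusted p = 0.0380). Of 934 recomputed log2 changes of C5 against C1, 16 lost the call and 21 gained it, and 0 changed direction with a call. By chemical, 1 rising call appeared in the trend of apicidin with total counts, with no filter, in 1 fit of all libraries and with no minimum fold, and in that of valproic acid with total counts and the DESeq2 Wald test. In 1 fit of all libraries the trend of scriptaid had 11 falling and 2 rising calls. In trichostatin A, C5 had 2 rising calls without the filter. With 1 replicate left out in turn, falling calls ran from 7 to 11 in the trend of mocetinostat, from 3 to 5 at C5 of panobinostat, from 2 to 7 in the trend of scriptaid, from 0 to 3 at C5 of trichostatin A and from 4 to 7 at C5 of valproic acid. Rising calls ran from 0 to 1 at C5 of trichostatin A and from 0 to 1 in the trend of valproic acid. The cause was not tested. A prior count of 0.5 moved 5 of 28 levels by more than the replicate SD. Depth limits UGT1A4, UGT2B4 and UGT2B15, each with 3 C5 groups at the floor of 3 counts. It also limits UGT2A3 with 2 such groups, UGT2B7_7548 with 1, UGT2B17 with 6 and UGT1A1_7531 with 4.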

Other observations

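UGT2B11, a UGT2 gene related to UGT2B7, rose at C5 in 4 chemicals. In panobinostat its level was 11.3 ± 3.70 CPM (SD, n = 3) at C1 and 119.6 ± 30.4 at C5, a log2 change of 3.40 ± 0.31 (SE), with an adjusted p in edgeR of 1.11e-07. In valproic acid it went from 10.1 ± 4.20 to 91.0 ± 3.26 CPM (log2 3.14 ± 0.30) and in apicidin from 12.0 ± 3.33 to 64.4 ± 25.0 (log2 2.42 ± 0.37). In these 3 chemicals C5 was above C1 in 3 of 3 batches. In vorinostat it rose at C4, from 17.3 ± 1.74 to 178 ± 49.4 CPM (log2 3.39 ± 0.28, adjusted p = 1.06e-11), and stood at 8.81 ± 5.42 at C5, below C1 (log2 -0.96 ± 0.36, adjusted p = 0.0254). Scriptaid showed a rise at C4 (log2 1.82 ± 0.38) and at C5 (1.25 ± 0.38). In tacedinaline UGT2B11 was higher at C4 (log2 1.12 ± 0.45, adjusted p = 0.0473) and not past the test at C5 (-0.66 ± 0.50). UGT2B genes are close in sequence, so reads of near-identical transcripts could be assigned between them, which was not tested.

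UGT1A3, which conjugates bile acids and statins, fell at C5 from 137 ± 32.3 to 9.89 ± 10.7 CPM in vorinostat (log2 -3.87 ± 0.38) and from 92.5 ± 25.5 to 10.8 ± 4.42 in tacedinaline. The probe of UGT1A10, known as an enzyme of the gut, had 1438 ± 22.6 CPM at C1 and 195 ± 18.6 at C5 in mocetinostat, and followed UGT1A6_91513 across the 40 groups (r = 0.991). Whether that probe reads transcripts of other UGT1A genes was not tested. Among 12 other UGT genes 21 of 48 tests in the 7 chemicals without trichostatin A were falling and 4 rising calls at C5, and the 4 were UGT2B11. Of the tests of all features in these chemicals 15.3% were falling and 13.3% rising calls.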
